A study of Mus musculus with 79 samples.

Results

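Wt1 lies on the plus strand of mouse chromosome 2, chr2:105126529-105173616 in GRCm38, and encodes a zinc finger transcription factor. The gene was chosen by its measured RNA difference between 2 genotypes of adult hypothalamus, and it is 1 of the 25965 genes in the deposited expression table. The stretch examined for histone marks runs from 50 kb before the gene to 50 kb after it. It is overlapped by 149 of the 2725549 tiles of the chromatin table and by 2 other genes of the expression table, AI314831 (Wt1os, the antisense transcript of Wt1) and Gm11060.

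The animals were mice aged about 14 weeks on a C57BL/6 background. Control animals were Dnmt3a +/+. The other genotype, Δ/D329A, carried on the maternal allele a Dnmt3a deletion of exon 18 made with the oocyte-specific Zp3-Cre, and on the paternal allele the D329A missense mutation of the PWWP domain in exon 8, so that the mutant protein was the only functional form. RNA came from 5 +/+ and 4 Δ/D329A hypothalami, and native chromatin immunoprecipitation (ChIP) for H3K4me3, H3K27me3 and H3K36me3 and an input from 3 hypothalami of each genotype, with each animal giving all 4 libraries. A legend of the study calls the RNA animals female, and another calls those of its expression and ChIP tracks male. Whether RNA and ChIP differ in sex is thus not settled here. The hypothalamus was taken whole, so that fewer cells of a type and less RNA per cell cannot be told apart.

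Wt1 is known as a regulator of kidney, gonad and mesothelium development and is active in podocytes, in gonadal supporting cells and in a class of spinal cord interneurons. In tissues that do not use it, the CpG-rich start of such a developmental gene is usually covered by H3K27me3, the mark laid down by Polycomb complex 2, whereas H3K4me3 marks active or poised starts and H3K36me3 marks the bodies of transcribed genes. DNMT3A is a DNA methyltransferase that reads H3K36 methylation through its PWWP domain, and the D329A mutation changes that domain.

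A pair of stretches of the locus is printed here, and the first of them is described below. The first lies inside intron 3 of Wt1, and is the middle 300 bases of the kilobase shared by the tiles with the largest rise of H3K4me3 in the mutants (chr2:105134351-105134650, plus strand, GRCm38). The second lies just before the annotated Wt1 start and holds the part of the RefSeq promoter entry of Wt1os that precedes Wt1 (chr2:105126461-105126528, minus strand, GRCm38.p6). Capitals mark CpG dinucleotides, and both are read 5′ to 3′.

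Wt1 intron stretch: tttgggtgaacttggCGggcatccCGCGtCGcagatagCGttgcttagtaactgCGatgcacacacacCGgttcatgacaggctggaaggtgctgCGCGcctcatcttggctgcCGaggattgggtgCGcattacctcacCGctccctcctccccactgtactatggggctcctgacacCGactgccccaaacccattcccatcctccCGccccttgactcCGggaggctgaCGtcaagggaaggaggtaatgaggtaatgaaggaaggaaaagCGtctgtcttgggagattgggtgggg
Wt1os stretch: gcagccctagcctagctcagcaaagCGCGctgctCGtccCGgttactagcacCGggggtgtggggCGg

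The intronic stretch held 17 CpG in 300 bases, with 59% GC and an observed to expected CpG ratio of 0.652. Of the 32851 RefSeq promoter entries of the same length, 68.6% held fewer CpG (median 7). The stretch held 1 match to the GC box GGGCGG on either strand, a sequence that 35.7% of the promoter entries also held. The palindromic cAMP response element TGACGTCA occurred once, against 1.79% of the promoter entries, and was searched for after the sequence had been seen. The core letters GCGTGGG, bound by the EGR proteins that are the closest relatives of WT1, did not occur in the stretch and occurred in 5.04% of the promoter entries. These matches describe letters and were not tested for binding.

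Wt1 RNA was close to absent from control hypothalamus and present in all mutants. The +/+ libraries held 0, 0, 0, 2 and 0 reads on Wt1 exons, and the Δ/D329A libraries 61, 32, 37 and 48. Every mutant library thus held more Wt1 reads than all controls together, and the groups did not overlap. The mutants held 9.25, 8.27, 6.49 and 9.61 Wt1 reads per 1000000 reads on genes. The single control with reads, replicate 4, held 0.355, and a count of 0 in the others allowed up to 0.301, 0.417, 0.486 and 0.534 on the same scale (3 counts per library, counting error only).

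On the scale of the deposited values, log2 of RPKM, the reads of a gene corrected for its length and for the depth of the library, Wt1 stood at −6.98, −6.75, −6.53, −5.59 and −6.86 in +/+ and at −0.57, −1.03, −1.15 and −0.52 in Δ/D329A. The means were −6.54 ± 0.56 (SD, n = 5) and −0.82 ± 0.32 (SD, n = 4). The control values of the 4 libraries without a read are a floor of 0.9 reads that moves with library depth, so that the difference of 5.72 on this scale follows the floor, and it was 2.59 on the scale of log2(RPKM + 0.1). Wt1 reached 0.577 ± 0.125 RPKM (SD, n = 4) in the mutants, above the deposited value of 48.3% to 52.4% of all genes in the same library. That share also depends on the floor, since 5560 genes stand at it in every library. The floor of a short gene without a read can lie above Wt1, as for Gm11060 at 0.854 to 1.19 RPKM in the mutants. This contrast chose the gene, so no test is given for it.

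**Figure D1:**
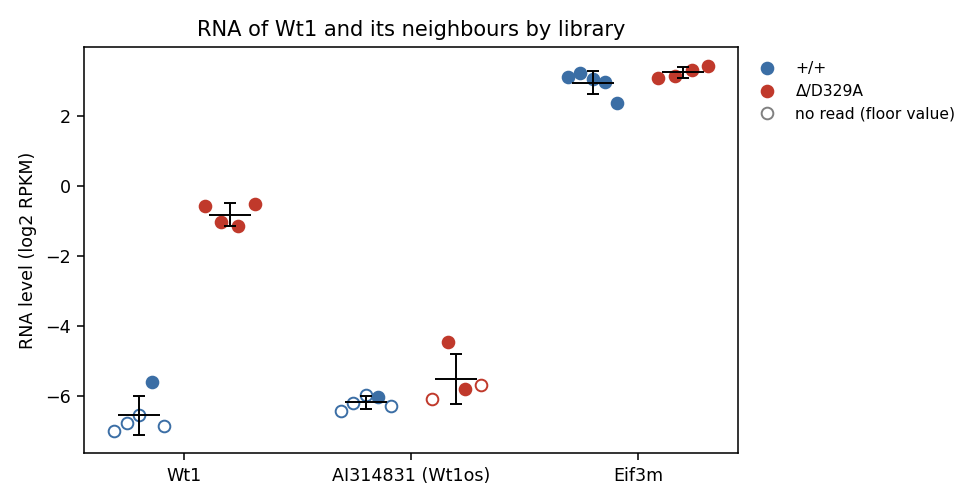
RNA levels in log2 RPKM (vertical axis) of Wt1, of its antisense neighbour AI314831 (Wt1os) and of Eif3m, in 5 +/+ and 4 Δ/D329A libraries. Points are libraries, open points hold no read and stand at the floor, and bars give the mean and SD. Wt1 lies between −1.15 and −0.52 in the mutants and at or below −5.59 in the controls, while AI314831 stays near the floor and Eif3m overlaps between genotypes.

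The antisense transcript stood at or near 0 reads in both genotypes. AI314831 held 0, 0, 0, 1 and 0 reads in +/+ and 0, 2, 1 and 0 in Δ/D329A, and it did not pass the filter on low values. The study describes a strand-specific kit in a figure legend, and whether the deposited counts used the strand is not given in the sources used here, so the values of both genes are uncertain where their exons overlap. Gm11060, whose annotated start lies 34.5 kb before that of Wt1, held 0 reads in all 9 libraries. It entered the test only because the floor of a very short gene lies above the filter, and its log2 difference of 0.37 is that of the floors.

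The nearest tested gene with reads before Wt1 was Eif3m, a subunit of a translation initiation factor, with 413, 377, 290, 314 and 226 reads in +/+ and 321, 240, 340 and 310 in Δ/D329A. Its RPKM was 7.87 ± 1.60 (SD, n = 5) against 9.48 ± 1.04 (SD, n = 4), and the groups overlapped (log2 difference 0.29, adjusted p = 0.508, limma with Benjamini-Hochberg adjustment over all genes tested). The nearest after Wt1 was Rcn1, a calcium-binding protein of the endoplasmic reticulum, at 10.2 ± 2.83 RPKM (SD, n = 5) against 7.98 ± 1.03 (SD, n = 4), and it also overlapped (log2 difference −0.31, standard error 0.21, limma adjusted p = 0.561). Of the 23 genes that start within 1 Mb of Wt1, 17 were tested, 3 of them without a read. None was called at an adjusted p under 0.01 by limma, edgeR or DESeq2, and limma gave 0 of them an unadjusted p under 0.05. Over all genes, 19 of 17839 were called, or 0.107%, and the median difference of the 17 neighbours was −0.09 against 0.06 for all genes tested. The 17839 include 1724 genes without a read, which passed the filter through the floor.

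Dnmt3a, the mutated gene, was read in every library. Its level was 2.11, 1.85, 1.85, 1.71 and 2.04 log2 RPKM in +/+ and 1.66, 1.51, 1.65 and 1.72 in Δ/D329A. The table merges all exons of a gene, so that these values check neither allele. The +/+ libraries held 5613872 to 9969030 reads on genes and the mutants 3871244 to 6594015. The 12 hypothalamic markers, among them the neuropeptides Pmch, Hcrt, Agrp and Pomc, summed to between 402 and 832 RPKM in +/+ and between 466 and 682 in Δ/D329A, and each had reads. Sim1 was lower in the mutants without overlap (1.76 to 2.29 against 0.918 to 1.41 RPKM), and the others overlapped. By limma, 2 of the 12 had an unadjusted p under 0.05, against 7.62% of all genes tested. For ChIP, mapped reads ranged from 12676361 to 30207875 per library. The H3K4me3 background differed between libraries, where the median tile held 5 reads in mutant replicate 1, 1 read in mutant replicate 2 and 2 or 3 reads elsewhere. Mean mitochondrial coverage in H3K4me3 was 29.5 to 44.6 RPM in +/+ replicate 3 and mutant replicates 2 and 3 but 14.8 to 19.2 RPM in the other animals.

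Cell types that use Wt1 were checked through their markers. Of 8 mesothelial markers, Bnc1 and Muc16 held no read in any library, and their sum was 0.512 to 0.990 RPKM in +/+ and 0.597 to 0.797 in Δ/D329A. The 6 podocyte markers summed to 14.0 to 22.8 RPKM in +/+ and 14.2 to 17.0 in Δ/D329A, and the 6 markers of gonadal supporting cells to 3.54 to 4.66 and 2.82 to 4.97. The 4 markers of spinal dI6 interneurons, which use Wt1 during development, summed to 0.633 to 1.28 RPKM in +/+ and 0.756 to 1.45 in Δ/D329A. In each of these lists the ranges of the sums overlapped. A sum follows the highest members of its list, such as Bhlhe22 among the dI6 markers. Dmrt3 of that list did not overlap, at 0.0228, 0, 0, 0 and 0 RPKM in +/+. It was 0.114, 0.0398, 0.0315 and 0.0752 RPKM in Δ/D329A, all low values. Upk3b and Lbx1 held reads in mutants only, though not in all of them, and the other members with reads overlapped. The sums also overlapped for 8 meningeal markers (6.81 to 16.3 against 8.31 to 18.2 RPKM), 8 choroid plexus markers (4.55 to 5.79 against 4.69 to 8.81), 8 pituitary markers (3.40 to 18.5 against 4.54 to 13.3) and 6 endothelial markers (11.9 to 28.1 against 17.2 to 22.4). Among the choroid plexus markers, Ttr was higher in the mutants without overlap (0.367 to 1.53 against 1.70 to 4.01 RPKM). Kl was lower there, also without overlap (0.939 to 1.22 against 0.614 to 0.936 RPKM). Of the 6 tested in that list, 2 had an unadjusted p under 0.05 by limma, against 7.62% of all genes tested. No marker of any list was called by limma, with 0.107% of all genes tested called.

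In the chromatin table, each value is the number of reads in a 2 kb tile per 1000000 mapped reads of that library (RPM), tiles start every 1 kb and neighbouring tiles share reads, and the position of a tile is given here as the distance of its centre from the annotated Wt1 start. H3K4me3 was the mark with the clearest change, and the change lay inside the gene rather than at its annotated start. At 8.472 kb (105134001 to 105136000), H3K4me3 was 0.126, 0.0665 and 0.263 RPM in +/+ and 5.77, 2.52 and 7.04 RPM in Δ/D329A, from 2, 1 and 4 reads against 92, 32 and 109. All mutants lay far above all controls, and Δ/D329A replicate 2, with the lowest background, gave the lowest of the mutant values. The log2 difference of RPM + 0.1 was 4.32 ± 0.37 (SE, n = 3 against 3, limma adjusted p = 3.5e-26), the largest rise of H3K4me3 among all 2162302 tiles tested, 0.0634% of which were called in either direction. With this level the tile ranked above 98.1% of all tiles in the mutants, and above 43.5% in the controls.

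The tile before it, at 7.472 kb (105133001 to 105135000), held the second largest rise, with 0.0632, 0.0665 and 0.328 RPM in +/+ and 5.02, 2.29 and 5.81 in Δ/D329A (log2 difference 4.20 ± 0.38, SE, limma adjusted p = 5.9e-23). The tile after it, at 9.472 kb (105135001 to 105137000), reached 1.94, 0.394 and 1.74 RPM in Δ/D329A against 0.190, 0.133 and 0.0657 in +/+ (log2 difference 2.46 ± 0.47, SE, limma adjusted p = 0.00080). The first 2 tiles share the kilobase 105134001 to 105135000, while the tile at 6.472 kb stood at 0.564, 0 and 0 RPM in the mutants, so that most of the reads fell in that kilobase. Both calls were retained without any single library, and relative to the input of the same animal the differences were 4.19 and 4.99. With mitochondrial coverage as a block they were 4.04 and 4.25. The call at 9.472 kb was lost without Δ/D329A replicate 1 (limma adjusted p = 0.262) or replicate 3 (limma adjusted p = 0.335), and no tile was called when all tiles were tested without a filter on low values.

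**Figure D2:**
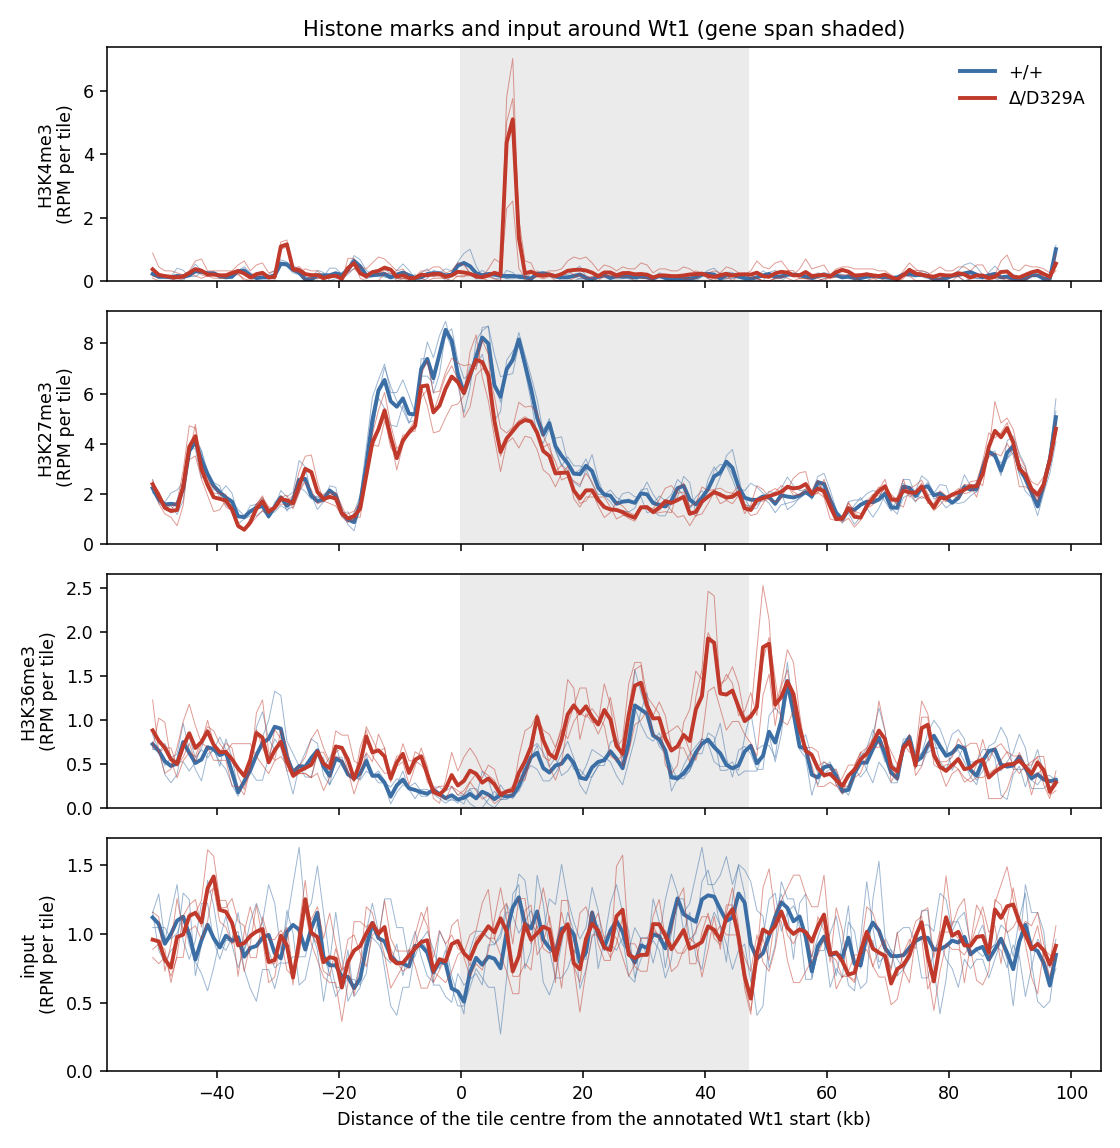
H3K4me3, H3K27me3, H3K36me3 and input in RPM per 2 kb tile (vertical axes) by distance of the tile centre from the annotated Wt1 start in kb (horizontal axis). Thin lines are libraries, thick lines the means of 3 +/+ and 3 Δ/D329A animals, and the gene is shaded. H3K4me3 rises in the mutants at 7.472 and 8.472 kb, H3K27me3 covers the start in both genotypes and H3K36me3 is higher in the mutants over much of the gene after 10 kb.

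By the annotation, the kilobase shared by both tiles lies wholly in intron 3 of the longest annotated transcript, which runs from 105133505 to 105143084, and overlaps no exon of any annotated Wt1 transcript. The annotated starts of the protein-coding Wt1 transcripts lie between 0 and 0.681 kb and at 4.354 kb, and those of retained-intron forms at 4.271 and 36.3 kb. No annotated start fell in the 3 called tiles. The tiles at 7.472 and 8.472 kb held 69 and 44 CpG, more than 99.0% and 97.1% of all tiles of the genome, whose median was 13. The tile over the annotated start, at 0.472 kb, held 150 CpG, the most in the window.

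At the annotated start, H3K4me3 was not higher in the mutants. The tile at 0.472 kb held 0.569, 0.865 and 0.263 RPM in +/+ and 0.502, 0.158 and 0.129 in Δ/D329A, so that the groups overlapped and the mutant mean was the lower one (log2 difference −0.91, limma adjusted p = 1.0). Over the promoter, from 1500 bp before the start to 500 bp after it, the log2 difference was −0.81 ± 0.49 (SE, limma adjusted p = 1.0), and over 5 kb on each side of the start it was −0.50 ± 0.41 (SE, limma adjusted p = 1.0). Each region value is the mean of the tiles whose centre lies in the region, 2 tiles for this promoter, and these tiles reach past its ends. Among all genes, 1.09% of promoters and 1.04% of start regions were called for H3K4me3. Averaged over the gene body, from 500 bp after the start to the gene end, H3K4me3 was 0.117, 0.192 and 0.119 RPM in +/+ and 0.644, 0.214 and 0.427 in Δ/D329A, without overlap, and the difference of 1.05 ± 0.35 (SE) missed the threshold (limma adjusted p = 0.71, with 0.152% of gene bodies called).

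One further H3K4me3 feature stood in both genotypes, 28.5 kb before the start (105097001 to 105099000). It reached 0.443, 0.599 and 0.525 RPM in +/+ and 1.07, 1.10 and 1.29 in Δ/D329A. The mutants lay above the controls there too, with a log2 difference of 1.01 ± 0.39 (SE) at a limma adjusted p of 1.0. In all, 6 of the 140 window tiles tested for H3K4me3 had an unadjusted p under 0.05, against 2.3% of all tiles, and 5 of the 6 were higher in the mutants.

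**Figure D3:**
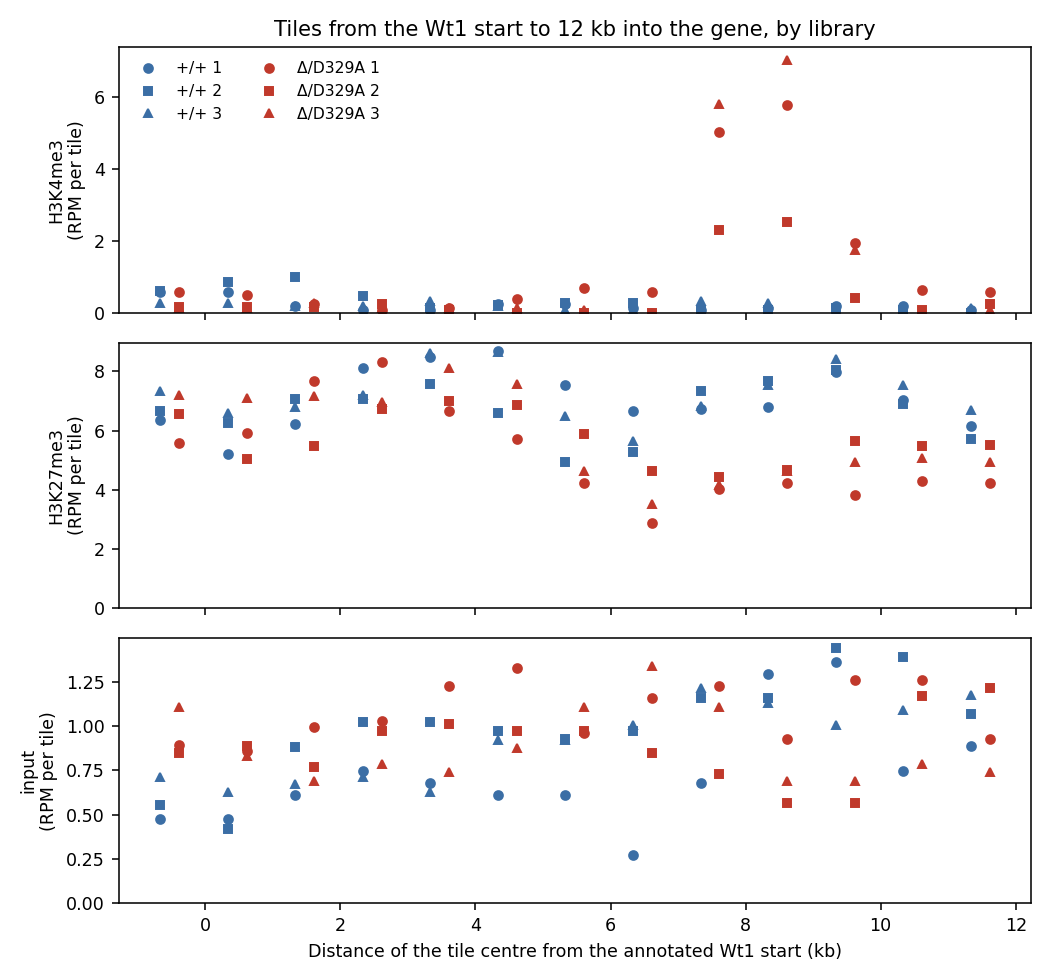
H3K4me3, H3K27me3 and input in RPM per tile (vertical axes) for each animal, for tiles from the annotated Wt1 start to 12 kb into the gene (horizontal axis, kb). Symbols give the replicate, and +/+ and Δ/D329A points are drawn slightly to the left and right of the tile centre. The 3 mutants separate from the controls in H3K4me3 at 7.472, 8.472 and 9.472 kb and lie below them in H3K27me3 at 6.472 to 11.472 kb.

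H3K27me3 was high around the Wt1 start in both genotypes. Tiles with a mean of at least 3 times input formed a domain of 34 kb, from 16.5 kb before the start to 17.5 kb after it, with 3.14 to 8.54 RPM in +/+ and 2.73 to 7.34 RPM in Δ/D329A against 0.683 to 1.08 RPM in input. Taken by genotype, the domain was 35 kb long in +/+ and 32 kb in Δ/D329A. Over 5 kb on each side of the start, H3K27me3 was 7.56, 7.03 and 7.62 RPM in +/+ and 5.94, 6.27 and 7.05 RPM in Δ/D329A. In every library this was more than in 99.7% to 99.8% of the start regions of all genes tested. The ranges of the genotypes touched, with the highest mutant just above the lowest control, and the log2 difference of −0.21 ± 0.10 (SE) was not called (limma adjusted p = 0.423, with 1.26% of start regions called). Over the promoter the difference was −0.04 ± 0.14 (SE, limma adjusted p = 0.958, with 0.944% of promoters called). Input was higher in the mutants at the start, and as a ratio to the input of the same animal, H3K27me3 over the 5 kb on each side was 11.2, 8.61 and 11.6 in +/+ and 5.88, 7.61 and 8.50 in Δ/D329A, without overlap (log2 difference −0.48, limma adjusted p = 0.184). Over the promoter this ratio was 12.2, 13.3 and 10.4 in +/+ and 6.55, 6.69 and 7.40 in Δ/D329A, also without overlap (log2 difference −0.69, limma adjusted p = 0.417).

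Of the tiles with higher H3K4me3, 1 was called for lower H3K27me3 in the mutants. At 9.472 kb it was 7.99, 8.05 and 8.43 RPM in +/+ and 3.83, 5.65 and 4.92 RPM in Δ/D329A, without overlap, a log2 difference of −0.77 ± 0.15 (SE, limma adjusted p = 0.022, with 0.0245% of tiles called). The tiles at 7.472 and 8.472 kb missed the threshold, with differences of −0.71 (limma adjusted p = 0.050) and −0.69 (limma adjusted p = 0.059). At 6.472 kb, where H3K4me3 was not called, H3K27me3 was 6.67, 5.28 and 5.65 RPM in +/+ and between 2.89 and 4.62 RPM in Δ/D329A, also without overlap (log2 difference −0.68, limma adjusted p = 0.191). Over the 3 tiles from 7.472 to 9.472 kb together, H3K27me3 averaged 7.49 ± 0.27 RPM in +/+ and 4.51 ± 0.44 RPM in Δ/D329A (SD, n = 3 each). Input moved in the same direction at 8.472 kb (log2 difference −0.67) and 9.472 kb (−0.60) and stood at 0.01 at 7.472 kb (limma adjusted p = 0.970, 0.970 and 0.999). Relative to input the difference at 9.472 kb was −0.17 (limma adjusted p = 0.981), and the call was also lost without +/+ replicate 1, 2 or 3 (limma adjusted p of 0.162, 0.130 and 0.160) and without Δ/D329A replicate 1 or 3 (0.261 and 0.0898).

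Beyond these tiles, mean H3K27me3 was also lower in the mutants over more of the gene and over the 50 kb before it. Of the 149 window tiles, 31 had an unadjusted p under 0.05 and 28 of these were lower in the mutants, against 3.93% of all tiles in that direction. Of these lower tiles, 10 lay in the 50 kb before the start and 2 between the start and 7 kb. Another 3 lay from 7 to 10 kb, and 13 from 10 kb to the gene end. From 10 kb to the gene end, H3K27me3 averaged 2.79, 2.70 and 2.71 RPM in +/+ and 1.86, 2.23 and 2.22 RPM in Δ/D329A, while input averaged 1.05 ± 0.09 and 0.968 ± 0.034 RPM (SD, n = 3 each). Over the whole body, H3K27me3 was 3.61 ± 0.10 RPM in +/+ and 2.78 ± 0.22 RPM in Δ/D329A (SD, n = 3 each) and the groups did not overlap, but the difference of −0.37 ± 0.10 (SE) was not called (limma adjusted p = 0.338, with 0.00521% of bodies called). Over the 50 kb before the start, H3K27me3 was 3.29 ± 0.16 RPM in +/+ and 2.86 ± 0.26 RPM in Δ/D329A (SD, n = 3 each), with overlap. The log2 difference there was −0.20 ± 0.09 (SE, limma adjusted p = 0.437, with 60 of 24394 such flanks called). After the gene end the genotypes overlapped, with 2.13 ± 0.12 and 2.22 ± 0.16 RPM (SD, n = 3 each) over 50 kb.

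**Figure D4:**
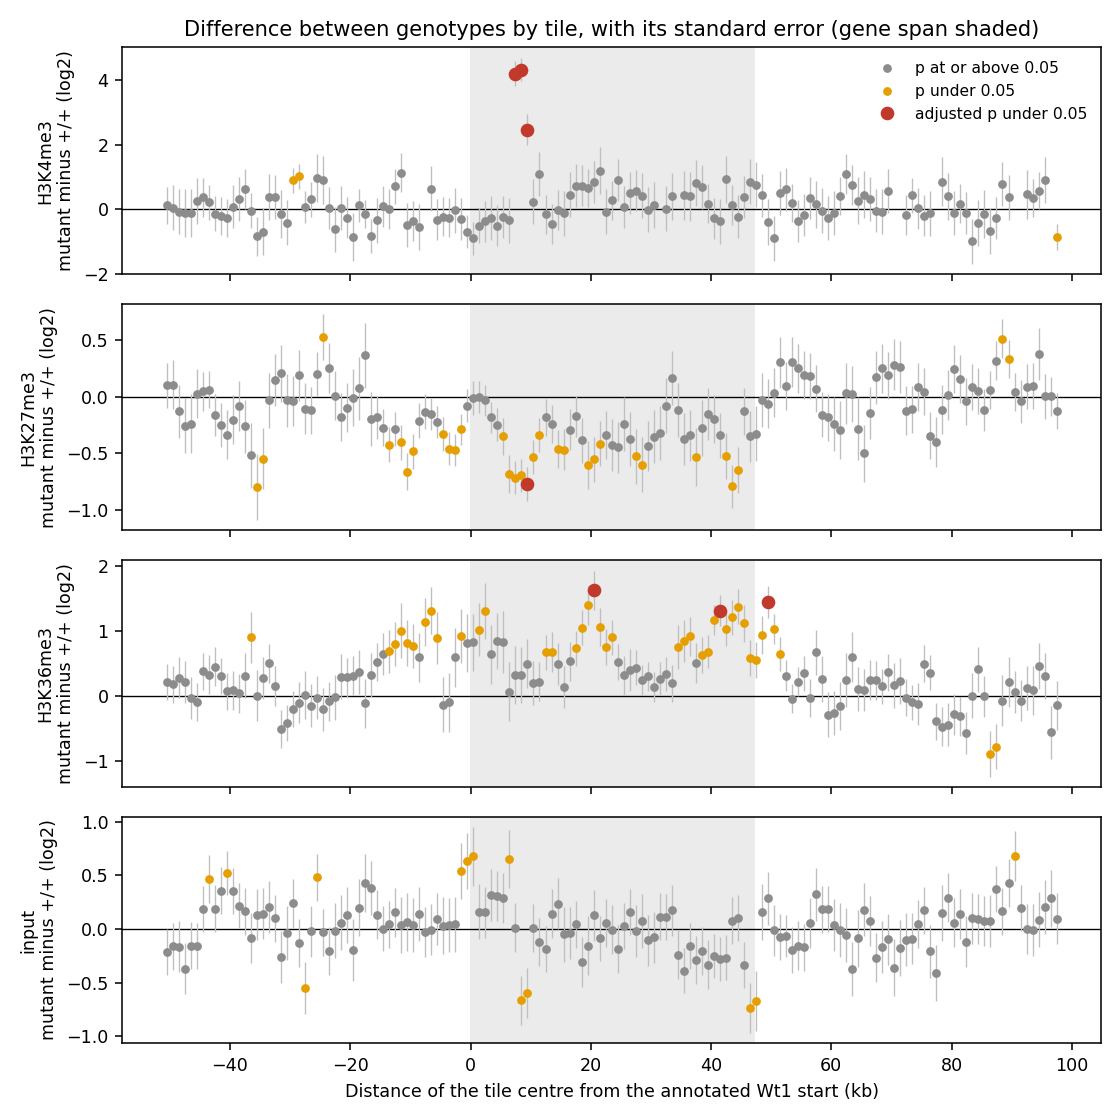
Difference between genotypes (mutant minus +/+, log2 of RPM + 0.1, vertical axes) with its standard error for each tile tested, by distance from the annotated Wt1 start in kb (horizontal axis). Orange points have an unadjusted p under 0.05 and red points an adjusted p under 0.05. Called tiles lie at 7.472, 8.472 and 9.472 kb for H3K4me3, at 9.472 kb for H3K27me3 and at 20.472, 41.472 and 49.472 kb for H3K36me3, and no input tile was called.

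H3K36me3, the mark of transcribed gene bodies, was higher in the mutants over the latter part of Wt1. At 41.472 kb, in intron 7, it was 0.744, 0.806 and 0.523 RPM in +/+ and 1.85, 1.38 and 2.41 RPM in Δ/D329A, a log2 difference of 1.31 ± 0.24 (SE, limma adjusted p = 0.021). At 20.472 kb, in intron 5, it was 0.350, 0.474 and 0.157 RPM against 1.07, 1.03 and 1.36 RPM (log2 difference 1.62 ± 0.30, SE, limma adjusted p = 0.033). Just after the gene end, at 49.472 kb, it was 0.438, 0.711 and 0.628 RPM against 2.53, 1.28 and 1.68 RPM (log2 difference 1.45 ± 0.25, SE, limma adjusted p = 0.010). In each of these 3 tiles all mutants lay above all controls, while 0.00313% of all tiles were called.

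The 3 calls rested on few reads, and not all were kept when single libraries were left out. These tiles held 3 to 17 reads per control library and 21 to 52 per mutant library. Without +/+ replicate 1, Δ/D329A replicate 1 or Δ/D329A replicate 3, 0 of the 3 tiles were called, and without +/+ replicate 3 only that at 49.472 kb was. Without Δ/D329A replicate 2 the tile at 20.472 kb was lost (limma adjusted p = 0.0974). Over the whole genome, 77 tiles were called with all libraries, 6 without +/+ replicate 1 and 12 without Δ/D329A replicate 3. Without Δ/D329A replicate 1 the number was 104, and without +/+ replicate 3 it was 102. The log2 differences at these 3 tiles stayed between 1.12 and 1.88 without any single library. Relative to input, none was called, with 0 of all 2459856 tiles tested called. The log2 differences were then 1.50 at 20.472 kb, 1.59 at 41.472 kb and 1.16 at 49.472 kb. The lower bar of an unadjusted p under 0.05 was passed by 40 of the 149 tiles, 38 of them higher in the mutants, against 3.18% of all tiles in that direction.

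Along the gene, H3K36me3 was described in stretches before, over and past the intronic H3K4me3. Between 10 kb and the gene end, H3K36me3 averaged 0.626, 0.596 and 0.549 RPM in +/+ and 1.13, 0.921 and 1.03 RPM in Δ/D329A. The mutants lay above all controls, at 1.74 times their mean, and 21 of the 37 tiles there had an unadjusted p under 0.05 with a higher mutant value. In the first 10 kb after the gene end the averages were 0.831 ± 0.076 and 1.26 ± 0.24 RPM (SD, n = 3 each), again without overlap, and from 10 to 50 kb after it they were 0.514 ± 0.030 and 0.515 ± 0.024 RPM. Between the start and 7 kb the level was low in both genotypes and overlapped, at 0.106, 0.081 and 0.224 RPM in +/+ and 0.327, 0.154 and 0.442 RPM in Δ/D329A, where the mutant mean was 2.24 times that of the controls. From 7 to 10 kb it was 0.173 ± 0.041 and 0.261 ± 0.027 RPM (SD, n = 3 each), without overlap. These stretches were set after the profiles had been seen, so their averages are given without a test.

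**Figure D5:**
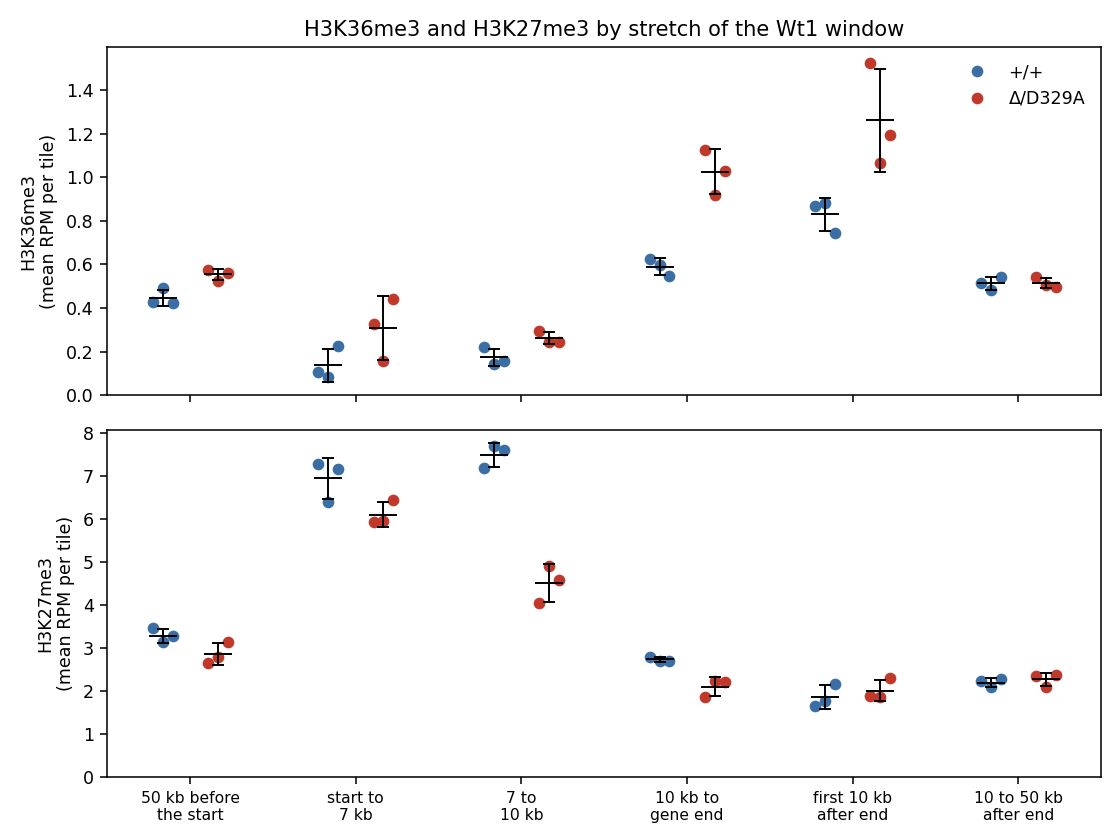
Mean H3K36me3 (top) and H3K27me3 (bottom) in RPM per tile (vertical axes) for 6 stretches of the Wt1 window (horizontal axis) in 3 +/+ and 3 Δ/D329A animals. Points are animals and bars give the mean and SD. For H3K36me3 the mutants lie above the controls without overlap in all stretches but those from the start to 7 kb and from 10 to 50 kb after the gene. From 10 kb to the gene end the averages are 0.590 against 1.03 RPM. For H3K27me3 the mutants lie lower from 7 kb to the gene end.

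Over the whole gene body, H3K36me3 was 0.533, 0.498 and 0.482 RPM in +/+ and 0.973, 0.776 and 0.898 RPM in Δ/D329A. Wt1 thereby moved from above 26.6% to 30.8% of gene bodies in the controls to above 48.0% to 56.5% in the mutants. The log2 difference was 0.70 ± 0.10 (SE, n = 3 against 3), the rank of its p was 9 of 22962 gene bodies, and it was not called by limma (adjusted p = 0.243, with 0.0% of bodies called). On recovered reads, edgeR's quasi-likelihood test called it (log2 difference 0.84, Benjamini-Hochberg adjusted p = 8.9e-06), as it called 0.649% of gene bodies. The 50 kb before the start of AI314831, which is read on the minus strand, cover nearly the same stretch, and there H3K36me3 was called by limma (log2 difference 0.72 ± 0.08, SE, adjusted p = 7.2e-07), in a test in which 1.76% of such flanks were called. All 22 other gene bodies tested within 1 Mb had a smaller difference, from −0.19 to 0.50.

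The region around the annotated start also differed slightly in H3K36me3, at 0.127, 0.133 and 0.167 RPM in +/+ and 0.258, 0.202 and 0.415 RPM in Δ/D329A. The difference of 0.66 ± 0.19 (SE) was not called by limma (adjusted p = 0.122, with 0.75% of start regions called), but it was called by edgeR (1.16, adjusted p = 0.038) and by limma without Δ/D329A replicate 2 (0.83, adjusted p = 0.025). Over the promoter the difference was 0.81 ± 0.39 (SE, limma adjusted p = 0.663, with 0.0371% of promoters called). Input was higher in the mutants in the same places, by 0.28 over the start region (limma adjusted p = 0.856) and by 0.65 over the promoter (limma adjusted p = 0.908), without overlap in either, and relative to input the H3K36me3 differences there were 0.38 and 0.15. None of the input tiles of the window was called by limma, with 0.0% of all tiles called, and 13 of 149 had an unadjusted p under 0.05, against 5.07% of all tiles. Over the 50 kb before the start H3K36me3 was 0.447 ± 0.038 RPM in +/+ and 0.554 ± 0.025 RPM in Δ/D329A (SD, n = 3 each), without overlap. The limma adjusted p was 0.080, where 1.76% of such flanks were called. Over the 50 kb after the gene H3K36me3 was 0.577 ± 0.013 and 0.665 ± 0.065 RPM, also without overlap (SD, n = 3 each, limma adjusted p = 0.233, with 2.26% called).

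Genes that act with WT1 were described from lists of paralogues, partners, reported targets and developmental companions. No member of these lists was called by limma, against 0.107% of all genes. The paralogues, which are the immediate-early factors Egr1, Egr2, Egr3 and Egr4, had a median log2 difference of 0.92 against 0.06 for all genes tested, and 3 of the 4 had an unadjusted p under 0.05, against 7.62% of all genes tested. Egr1 stood at 1.89, 1.90, 2.22, 1.50 and 2.05 log2 RPKM in +/+ and at 2.86, 2.51, 2.50 and 2.55 in Δ/D329A, without overlap (log2 difference 0.69, limma adjusted p = 0.234). Egr3 and Egr4 overlapped between genotypes, with log2 differences of 1.30 (limma adjusted p = 0.333) and 1.15 (limma adjusted p = 0.355). On recovered reads DESeq2 gave Egr1 an adjusted p of 0.0075, under the threshold, and edgeR one of 0.040. Over all genes, DESeq2 called 1.51% and edgeR 0.475% at the same threshold.

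Of the WT1 partners and cofactors, 7 of 8 were in the table and tested. None had an unadjusted p under 0.05 and their median difference was 0.04, with values of −0.89 for Pawr, a proapoptotic WT1-binding protein, −0.15 for Wtap, a subunit of the RNA methyltransferase complex, and 0.20 for the splicing factor U2af2. Of 30 genes reported as WT1 targets, 22 were tested, with a median of 0.16, and 1 had an unadjusted p under 0.05. That gene was Rspo1, a secreted activator of Wnt signalling, at 1.40 ± 0.52 log2 RPKM in +/+ (SD, n = 5) and 0.37 ± 0.25 in Δ/D329A (SD, n = 4; log2 difference −1.04, limma adjusted p = 0.255), and it passed the threshold with edgeR (adjusted p = 0.0078) and DESeq2 (adjusted p = 0.00065). Lef1, a Wnt effector, and Cdh1, the epithelial cadherin, had values of 0.52 (limma adjusted p = 0.355) and 1.17 (limma adjusted p = 0.504). Of 10 genes that set up intermediate mesoderm and gonad, 7 were tested, with a median of 0.20. Of these, 2 were higher at an unadjusted p under 0.05, the gonadal transcription factor Lhx9 (1.18, limma adjusted p = 0.277) and the Polycomb subunit Cbx2 (0.75, limma adjusted p = 0.355), and 2 were lower, the transcriptional coactivator Eya1 (−0.68, limma adjusted p = 0.355) and the kidney and neural LIM factor Lhx1 (−0.50, limma adjusted p = 0.355), the latter named after its value was seen. Lhx9 passed the threshold with DESeq2 (adjusted p = 0.00056) and missed it with edgeR (adjusted p = 0.016). The limma adjusted p of 0.355 is also that of tested genes without a read, such as Gm11060.

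The 10 tested genes whose log2 RPKM followed Wt1 most closely over the 9 libraries were Lhx4, Hoxa6, Hoxa7, Gabrr2, Trim40, Plin4, Dct, Hoxa4, Pou4f1 and Lect1. Their Pearson r with Wt1 ranged from 0.962 for Lect1 to 0.989 for Lhx4. All 10 were among the 19 genes called between genotypes, and the 9 points fall into the 2 genotypes, so that these coefficients restate that split. The filter asked for 0.1 RPKM in 4 libraries, as many as there are mutants. Genes at the floor in the controls, such as Hoxa6, Hoxa7 and Hoxa4, thus entered the test through the mutants alone. Their calls depend on the group in which they are high. Within the 4 mutants r ranged from −0.41 for Hoxa4 to 0.89 for Plin4. Lhx4, a LIM homeobox factor of pituitary and motor neuron development, had 2 reads over all controls and 101 over all mutants, and Hoxa6, Hoxa7 and Hoxa4, homeobox factors of axial patterning, had 0 reads in the controls and 17, 92 and 14 in the mutants.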

How the data were processed

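Expression and histone marks were measured in hypothalamus of mice aged about 14 weeks. The authors trimmed RNA-seq reads (Trim Galore 0.4.3 per the submitters' notes), mapped them to GRCm38 with HISAT2 2.0.5, merged reads over exons in SeqMonk and deposited log2 RPKM. A gene without a read stands at 0.9 reads, and 1724 genes without a read passed the filter used here. These genes count in the limma adjustment and in the limma shares and medians given for all genes tested. For ChIP the submitters' notes name Bowtie2 2.3.2 and the study's methods an earlier Bowtie, and they also give other versions of the RNA tools. The deposited signal is the read number of each 2000 bp tile, set every 1000 bp, scaled to uniquely mapped reads (RPM) without input subtraction. Both kinds of values gave back whole read numbers, within 0.02 reads for genes, with a wider tolerance at very high read numbers, and within 0.01 for tiles. Depths are given with the results, and counting limits use 3 counts.

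The RNA test was limma 3.58.1 (R 4.3.3) with a mean-dependent variance, on genes of at least 0.1 RPKM in 4 libraries, without mitochondrial genes, at an adjusted p under 0.01. The study used a count test, which was run here on recovered reads as an alternative (edgeR 4.0.16, DESeq2 1.42.0). Marks were compared with limma on log2(RPM + 0.1), over regions and tiles with a mean of at least 0.1 RPM, at an adjusted p under 0.05. A region was the mean of the tiles whose centre lay in it, so that its reads can come from beyond its ends. Tests were two-sided, with Benjamini-Hochberg adjustment over all features tested, and scripts were tested on simulated data. Each RNA library came from a separate animal, and the 24 ChIP and input libraries from 6 animals.

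Wt1, its window and the gene lists were chosen with earlier results of these data known, and Wt1 was selected on its RNA difference. Named were Wt1, genes overlapping the window, the nearest tested gene on each side, and from each list the members called and up to 3 with the smallest p. Also named were the 10 genes most like Wt1 and, for tiles, those called and the 3 highest per mark, of which the report prints those of interest. Eif3m was named after its values were seen, because the nearest tested gene before Wt1 has no read. Sequences are from GRCm38 and RefSeq (GRCm38.p6), and 1 transcript of the locus matched a RefSeq promoter entry. Alternatives were other pseudocounts, filters and scalings, input correction, blocks, count tests and leaving out replicates. Bisulfite libraries were not analysed here.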

Additional observations from a re-analysis of the deposited data

Results flagged for a closer look

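Among 47 groups of 4 or 5 RNA libraries checked for a library far from the rest, 2 stood out, where chance alone gives about 1 in 20. Egr1 was at 2.86 log2 RPKM in Δ/D329A replicate 1, with the nearest mutant at 2.55. Wtap was at 2.28 log2 RPKM in Δ/D329A replicate 2, with the nearest mutant at 2.42. Neither gene was called by limma between genotypes, and what sets these libraries apart was not tested.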

How the results depend on the processing

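Over the results for Wt1, its regions and its window, 157 of 185 alternatives kept direction and side of the threshold, or for values and counts moved little, 22 moved, 3 became called and 3 reversed. For single tiles and other values, 83 kept their call or direction and 31 lost the call. H3K4me3 called 3 window tiles, 2 to 3 without single replicates and 0 without a filter on low values. H3K27me3 called 1, 3 with a pseudocount of 0.5 RPM, 2 with the mitochondrial set block (libraries split by mitochondrial coverage, added after seeing the data), and 0 without a filter, with median centring or relative to input (0 to 4 without single replicates). H3K36me3 called 3, 6 with a pseudocount of 0.5 RPM, and 0 without a filter or relative to input (0 to 3 without single replicates). Input correction of tiles was added after seeing the data, and for H3K27me3 and H3K36me3 it called 0 tiles over the whole genome. The cause of these shifts was not tested. edgeR gave H3K36me3 a larger difference over the start (1.16) and body (0.84), both called. Without single replicates, H3K36me3 over the start ranged from 0.44 to 0.83, and H3K27me3 over the promoter from −0.14 to 0.02, above 0 without +/+ replicate 3 (0.021), Δ/D329A replicate 1 (0.014) or Δ/D329A replicate 2 (0.0066). The Wt1 RNA difference was 5.61 to 5.96 without single replicates and 2.59 on log2(RPKM + 0.1). No gene within 1 Mb was called under any setting.

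Replicate numbers were not treated as pairs in the main fits. The correlation of same-numbered deviations ranged from −0.44 to 0.44 for H3K4me3, 0.03 to 0.12 for H3K27me3, 0.0011 to 0.037 for H3K36me3 and −0.05 to 0.14 for RNA. Deviations within such small groups constrain each other and no value for paired samples is known, so these correlations cannot show whether samples were paired. With the replicate block, H3K27me3 called 3 tiles, H3K36me3 5 and H3K4me3 3.

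The called H3K36me3 and H3K4me3 tiles hold few reads in controls, and Wt1 RNA in controls cannot be told from 0 in 4 of 5 libraries.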
